A study of Saccharomyces cerevisiae with 4 samples.

Results

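Transcripts of the calcium-calcineurin pathway of Saccharomyces cerevisiae were examined in the haploid a-type laboratory strain BY4741 after honokiol, a biphenol from magnolia bark. The genes were listed by name for their place in the pathway: the calcineurin subunits CNA1, CMP2 and CNB1, the transcription factor CRZ1, and RCN1, CMK2, PMC1, PMR1 and ENA1, which calcineurin controls or which handle calcium and sodium. Of these 9 genes, 8 had a probe set of their own among the 5449 genes tested; ENA1 did not. Cultures in rich medium (YPD, OD600 of 0.4) received honokiol at 12 µg/mL for 2 h, or ethanol, its solvent, in the same volume (honokiol at 0 µg/mL) for 2 h. There were 2 arrays per group, from cultures that the titles call biological replicates, and the labels give an age of 8 h for all. All 4 arrays carry the same strain, with its deletions in HIS3, LEU2, MET17 and URA3.

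Calcineurin is a protein phosphatase that calcium-bound calmodulin switches on. Its catalytic subunit, Cna1 or Cmp2, works only together with the regulatory subunit Cnb1. Active calcineurin dephosphorylates Crz1, which then enters the nucleus and raises the transcription of genes for calcium and sodium pumps, cell wall synthesis and feedback on the pathway itself. Crz1 is controlled mainly through its phosphorylation, so the level of CRZ1 mRNA does not report its activity. In yeast the pathway is known for survival under high calcium, sodium, alkaline pH, prolonged mating pheromone and cell wall damage.

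Values are log2 of the deposited RMA intensities, and a probe set was taken as above background over a log2 intensity of 4.39; all 8 genes were above it in both groups. Over genes, the difference between replicates had an SD of 0.121 in the honokiol pair and 0.209 in the ethanol pair. LEU2, MET17 and URA3 lay between 2.73 and 4.56, at or near background, while HIS3, of which the strain lacks only a piece, lay between 10.70 and 11.05. Of the mating-type genes, MFA1 and STE2 of a cells lay between 12.47 and 13.52 and MF(ALPHA)1 of alpha cells between 3.27 and 3.83, but the alpha-cell genes MF(ALPHA)2 (5.45 to 6.58), STE3 (7.14 to 7.98) and SAG1 (9.14 to 9.30) were above background. The log2 ratio of 5′ to 3′ signal, averaged over 7 control transcripts, was -1.18 and -1.22 on the honokiol arrays, -1.31 on ethanol 1 and -1.67 on ethanol 2. Change also went with gene length, the median log2 change being 0.14 in the shortest quartile of tested genes and -0.17 in the longest.

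With honokiol, 5 of the 8 measured genes were lower and 0 were higher: RCN1, PMC1, PMR1, CMK2 and CNA1. CMP2 (lower), CNB1 (higher) and CRZ1 (lower) did not pass. Across all 5449 genes tested, 48.9% passed at the adjusted threshold, made up of 25.0% lower and 23.9% higher (limma, adjusted p under 0.05). The median log2 change of the 8 genes was -0.31, against 0.01 over all genes tested, and 7 of the 8 changes were negative. The honokiol arrays lay wholly below the ethanol arrays for 7 genes and wholly above them for 1, CNB1; of all genes tested, 40.2% lay wholly below, 40.0% wholly above and 80.2% in either direction, so such separation is common on these arrays. Of the 5 a-cell genes, 4 were lower with honokiol as well (BAR1 by -1.15, MFA1 by -0.69, STE6 by -0.48 and STE2 by -0.42; list median -0.48), and of the 4 alpha-cell genes STE3 was higher (0.59, adjusted p = 0.0249); their part in the changes of the 8 genes was not tested.

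**Figure D1:**
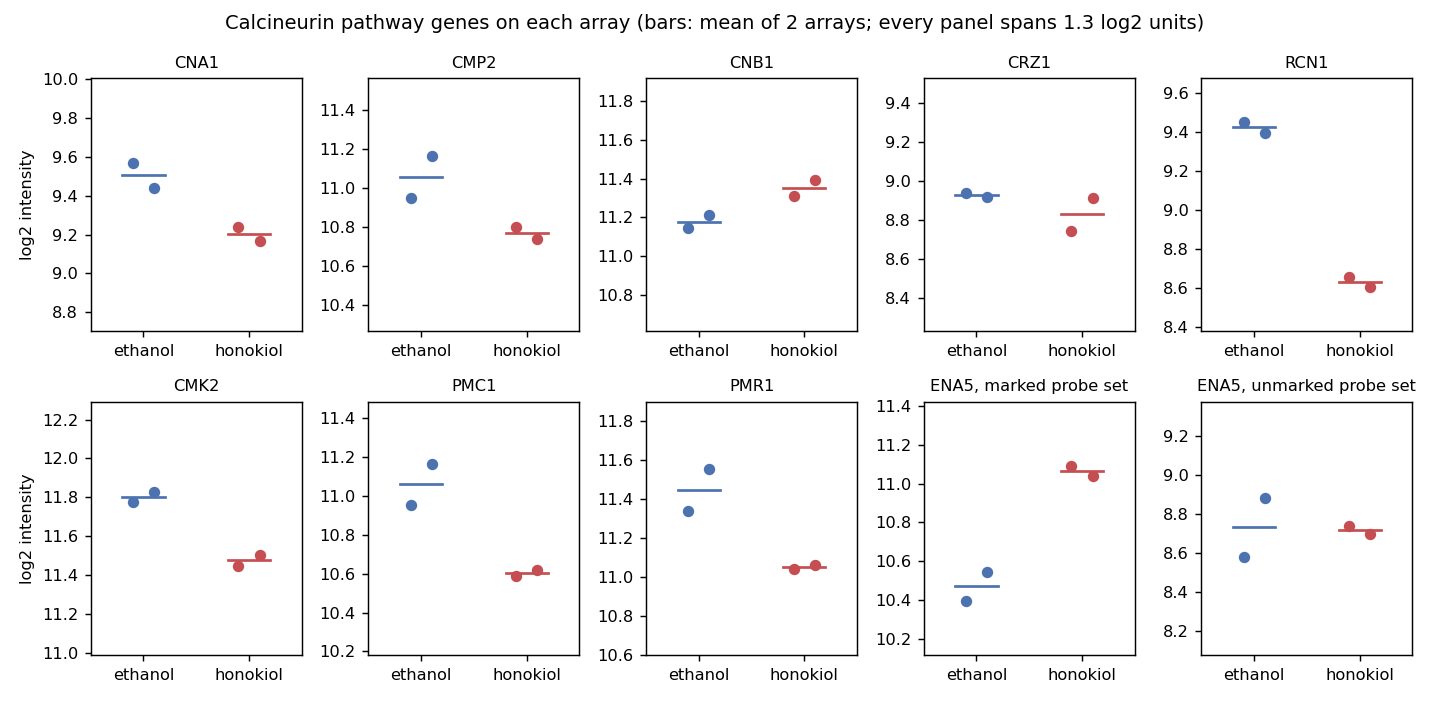
Log2 intensity (y axis) of the 8 measured genes and of both ENA5 probe sets on each array, ethanol in blue and honokiol in red, with replicate 1 at the left of each pair, bars at the group means and the same span of log2 units in every panel. RCN1 shows the widest gap, from 9.39 and 9.45 with ethanol to 8.60 and 8.65 with honokiol, and CRZ1 the narrowest among the 8 genes.

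Of the 3 calcineurin subunits only CNA1 passed, and it was lower with honokiol. CNA1 (YLR433C), a catalytic subunit, had log2 intensities of 9.24 and 9.17 with honokiol and 9.57 and 9.44 with ethanol. Both honokiol arrays were below both ethanol arrays, and CNA1 fell by 0.30 ± 0.07 in log2 units (SE; adjusted p = 0.0267), to 81.1% of its ethanol level. CMP2 (YML057W), the other catalytic subunit, had 10.80 and 10.74 with honokiol and 10.95 and 11.17 with ethanol. The groups did not overlap, but its change of -0.29 ± 0.09 did not pass (adjusted p = 0.0559; 95% interval -0.52 to -0.05). Its change was -0.12 with the 5′ to 3′ ratio as a covariate (adjusted p = 0.313), -0.18 without ethanol 2 (adjusted p = 0.0939) and -0.39 without ethanol 1, where it passed (adjusted p = 0.00749). CNB1 (YKL190W), the regulatory subunit, had 11.31 and 11.39 with honokiol and 11.14 and 11.21 with ethanol. It was higher on both honokiol arrays, with a change of 0.17 ± 0.07 that did not pass (adjusted p = 0.0843; 95% interval 0.00 to 0.35) and that was near the median of 0.14 for genes of its quartile of length.

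Relative to CNA1 on the same array, CNB1 was 2.07 and 2.23 log2 units with honokiol and 1.58 and 1.77 with ethanol, a mean shift of 0.48. Relative to CMP2 it was 0.51 and 0.65 with honokiol and 0.19 and 0.05 with ethanol, a shift of 0.46. The regulatory subunit thus gained on each catalytic subunit on both honokiol arrays. However, 2 arrays against 2 allow no exact permutation p (two-sided) below 0.333, the value both comparisons gave. CNB1 is in the shortest quartile of length (median change 0.14) and both catalytic subunits are in a longer one (median change -0.03). The part of length in these shifts was not tested. The log2 ratio of CNA1 to CMP2 was -1.56 and -1.57 with honokiol and -1.38 and -1.73 with ethanol, so the shift of -0.02 between the catalytic subunits was smaller than the spread between the ethanol arrays. In all, 7 such ratios were compared, and with Benjamini-Hochberg adjustment none of these exact permutation p-values was under 0.467.

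CRZ1 (YNL027W), the transcription factor that calcineurin activates, had 8.74 and 8.91 with honokiol and 8.94 and 8.91 with ethanol. The second honokiol array all but met the ethanol values. Its change was -0.10 ± 0.08 (adjusted p = 0.337), with a 95% interval from -0.31 to 0.11, and CRZ1 did not pass under any of the 13 other settings.

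RCN1 (YKL159C), the yeast calcipressin, binds calcineurin, limits or aids its activity, and is itself a Crz1 target. It had log2 intensities of 8.65 and 8.60 with honokiol and 9.45 and 9.39 with ethanol. The gap between the groups was many times the distance between replicates. RCN1 fell by 0.80 ± 0.06 log2 units (adjusted p = 0.00183; 95% interval -0.96 to -0.64), to 57.6% of its ethanol level. That placed it 113th from the lowest of the 5449 changes. RCN1 is a short gene, and its change lay 0.93 below the median change of its quartile of length, in which 12.7% of genes were called lower. It was the one gene of the 8 to pass under all 13 other settings, with values from -0.85 to -0.77.

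RCN2, the related calcineurin regulator and also a Crz1 target, had 11.48 and 11.46 with honokiol and 11.99 and 12.04 with ethanol. RCN2 fell by 0.55 ± 0.06 (adjusted p = 0.00359), so both regulators were lower with honokiol. The log2 ratio of RCN1 to RCN2 was -2.83 and -2.85 with honokiol and -2.54 and -2.65 with ethanol, a shift of -0.25 (exact permutation p = 0.333, the smallest possible). The 3 tested genes whose values over the 4 arrays, each centred on its mean, lay nearest those of RCN1 were GAT2, the mating MAP kinase gene FUS3 and YOL107W, at Euclidean distances of 0.0125, 0.0166 and 0.0312 log2 units. Their log2 changes were -0.80, -0.79 and -0.78, a likeness to RCN1 that follows from how they were picked.

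CMK2 (YOL016C), a calmodulin-dependent protein kinase and Crz1 target, had 11.45 and 11.51 with honokiol and 11.78 and 11.83 with ethanol. The replicates were close and the groups apart, and CMK2 fell by 0.32 ± 0.06 (adjusted p = 0.0132), to 79.9% of its ethanol level. The fit with the 5′ to 3′ ratio as a covariate leaves fewer degrees of freedom, so a call can be lost in it without a smaller change. In that fit the calls over all genes fell from 2663 to 1867. There the change of CMK2 was -0.28 and no longer passed (adjusted p = 0.0534). Its paralog CMK1 had 10.01 and 9.96 with honokiol and 10.24 and 10.18 with ethanol, and fell by 0.23 ± 0.06 (adjusted p = 0.0327). CMK1 did not pass with all probe sets but controls as features (adjusted p = 0.104). Its change lay between -0.28 and -0.20 under the 13 other settings. The log2 ratio of CMK2 to CMK1 shifted by -0.09 (1.44 and 1.54 with honokiol, 1.53 and 1.64 with ethanol), and here the groups overlapped (exact permutation p = 0.667).

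Both calcium pumps were lower. PMC1 (YGL006W), which pumps calcium into the vacuole, had 10.59 and 10.62 with honokiol and 10.95 and 11.16 with ethanol. It fell by 0.45 ± 0.09 (adjusted p = 0.0146), to 73.1% of its ethanol level. PMR1 (YGL167C), the Golgi pump for calcium and manganese, had 11.04 and 11.06 with honokiol and 11.34 and 11.55 with ethanol. It fell by 0.39 ± 0.09 (adjusted p = 0.0222), to 76.1%. The log2 ratio of PMC1 to PMR1 was -0.45 and -0.44 with honokiol and -0.38 and -0.39 with ethanol. That is a small shift of -0.06 (exact permutation p = 0.333, the smallest possible).

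Both pumps have long genes and were 0.21 higher on ethanol 2, the array with the lowest 5′ to 3′ ratio, than on ethanol 1; CMP2 was 0.22 higher there. Genes of the longest quartile were 0.10 higher on ethanol 2 at the median, and 39.6% of them were called lower with honokiol. The difference from the median change of that quartile was -0.28 for PMC1 and -0.22 for PMR1. With the 5′ to 3′ ratio as a covariate, PMC1 changed by -0.29 (adjusted p = 0.0444) and PMR1 by -0.22 and no longer passed (adjusted p = 0.0784). Without ethanol 2 both passed, at -0.35 and -0.29 (adjusted p = 0.0128 and 0.0219).

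**Figure D2:**
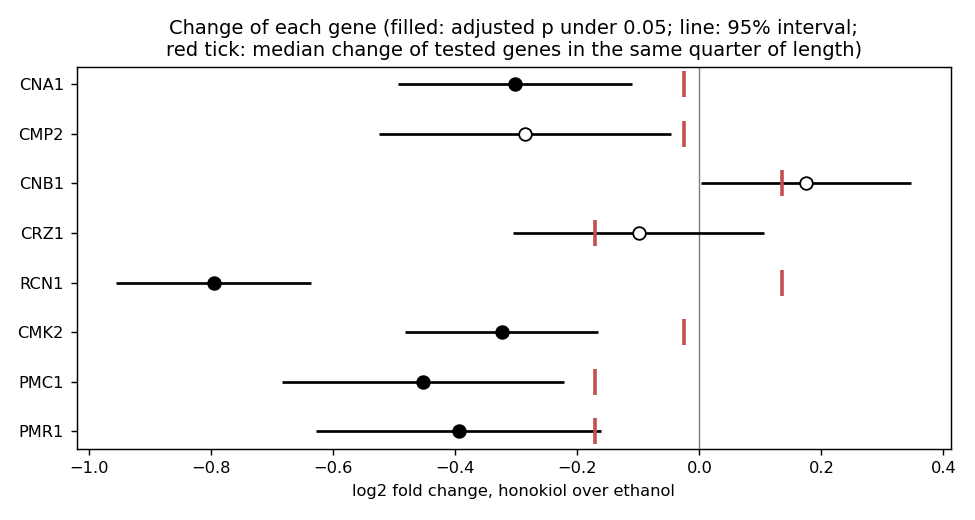
Log2 fold change of honokiol over ethanol (x axis) for the 8 measured genes, with lines for the 95% interval from limma, filled points where the adjusted p was under 0.05, and a red tick at the median change of tested genes in the same quartile of length. RCN1 at -0.80 is farthest from its tick at 0.14, whereas CNB1, CRZ1 and PMR1 have intervals that cover theirs.

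A fit without 1 honokiol array takes the spread from the ethanol pair alone, so a call lost there need not mean a smaller change. Without honokiol 1 or without honokiol 2, only RCN1 of the 8 genes passed (adjusted p = 0.0324 and 0.0361), and the calls over all genes fell from 2663 to 708 and 705. The changes of PMC1, PMR1, CMK2 and CNA1 kept their direction in those fits, with log2 values from -0.47 to -0.27.

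**Figure D3:**
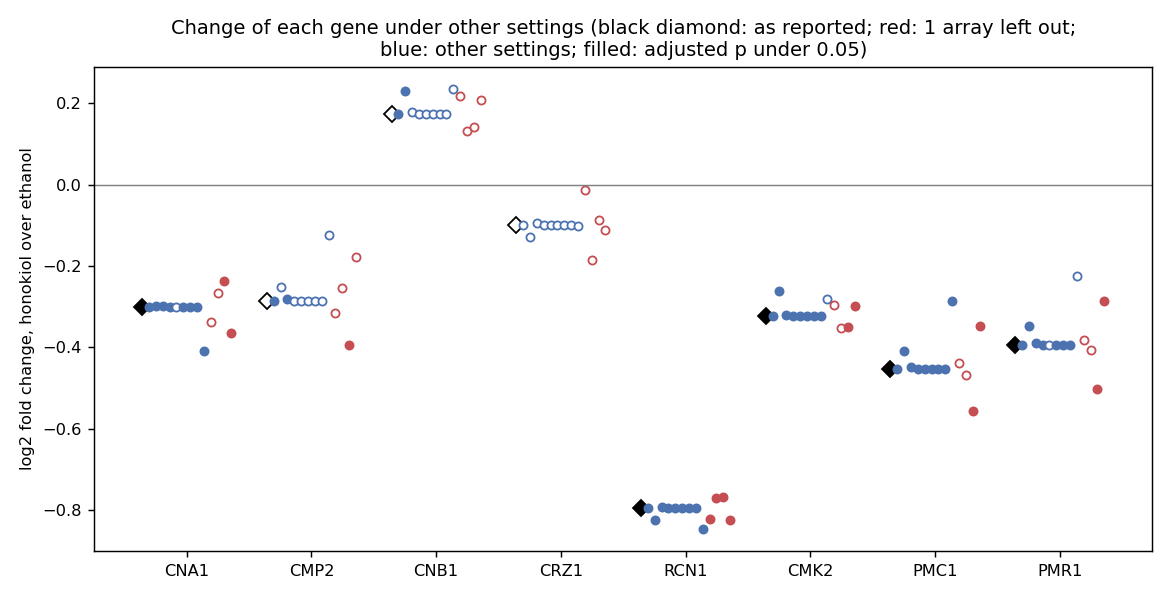
Log2 fold change (y axis) of the 8 genes as reported (black diamond), with 1 array left out (red) and under the other settings (blue), filled where the adjusted p was under 0.05. No gene crosses zero; RCN1 is filled throughout and CRZ1 open throughout.

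ENA1 encodes the sodium pump of the plasma membrane, a Crz1 target that glucose repression, high osmolarity and alkaline pH also control. Among probe sets tied to a single gene, none named ENA1 or its neighbour ENA2, and no value is given for either. ENA5, next in the same row of 3 near-identical genes in the gene table of assembly R64, was named by 2 probe sets. The brighter one is marked as able to bind several transcripts; which of the ENA genes it reads was not determined. It had 11.09 and 11.04 with honokiol and 10.40 and 10.55 with ethanol, and was 1.51-fold higher with honokiol (log2 0.59 ± 0.08, adjusted p = 0.00519). The unmarked probe set had 8.74 and 8.70 with honokiol and 8.58 and 8.88 with ethanol, a change of -0.01 (95% interval -0.33 to 0.31; adjusted p = 0.967 in the fit on all probe sets). The marked probe set was thus higher on both honokiol arrays while the honokiol values of the unmarked one fell between its ethanol values. The ratio of the marked to the unmarked probe set shifted by 0.60 (exact permutation p = 0.333, the smallest possible), and the mean of both probe sets changed by 0.29 and did not pass (adjusted p = 0.0556).

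Among 14 other genes reported as Crz1 targets, 6 were lower (42.9%, against 25.0% of all genes) and 1 was higher (7.14%, against 23.9%). RCN2 is among the lower genes and is counted again in the list of calcineurin modifiers. The 8 genes and all lists were chosen with earlier results of these data known, so such shares are descriptive only. GSC2, a catalytic subunit of the glucan synthase that builds the cell wall under stress, had 11.46 and 11.52 with honokiol and 12.35 and 12.40 with ethanol. GSC2 fell by 0.89 ± 0.06 (adjusted p = 0.00158; 95% interval -1.05 to -0.72). Under the 13 other settings its change lay between -0.92 and -0.80. YPS1, an aspartyl protease at the cell surface, had 11.20 and 11.18 with honokiol and 11.79 and 11.63 with ethanol and fell by 0.52 ± 0.08 (adjusted p = 0.00708). The gene that was higher was PHO89, a sodium-phosphate cotransporter that phosphate starvation also induces. It had 9.84 and 9.78 with honokiol and 8.19 and 7.90 with ethanol, 3.39-fold higher with honokiol (adjusted p = 0.00137). The log2 change of PHO89 lay between 1.53 and 1.90 under the 13 other settings. The list therefore held changes in both directions, with a median of -0.26. Fewer genes of this list passed without honokiol 1 or without honokiol 2, as over all genes. In those fits GSC2 changed by -0.85 and -0.92, and PHO89 by 1.73 and 1.79.

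Of 9 genes for calcium entry and release, 1 was lower and 1 was higher (11.1% each, against 25.0% and 23.9% of all genes), and the median change was -0.06. YVC1, the channel that lets calcium out of the vacuole, had 10.44 and 10.37 with honokiol and 10.83 and 10.85 with ethanol, and fell by 0.44 ± 0.06 (adjusted p = 0.00602). GDT1, a Golgi transporter of calcium and manganese, had 11.98 and 11.94 with honokiol and 11.47 and 11.37 with ethanol, 1.45-fold higher with honokiol (adjusted p = 0.00491). GDT1 and the pump PMR1 of the same organelle therefore differed in direction. VCX1, the vacuolar exchanger that takes up calcium beside Pmc1, changed by 0.14 ± 0.07 and did not pass (adjusted p = 0.161), nor did the P-type ATPase SPF1 of the endoplasmic reticulum (-0.16, adjusted p = 0.122), which passed without ethanol 1 (-0.22, adjusted p = 0.0427) and with an intensity trend and robust prior (adjusted p = 0.0453). FIG1, which serves calcium entry during mating, changed by -0.30 and did not pass (adjusted p = 0.214), but its value depended on the setting. It passed without ethanol 2 (-0.52, adjusted p = 0.0266), on quantile normalization again (-0.52, adjusted p = 0.019) and with the 5′ to 3′ ratio as a covariate (-0.67, adjusted p = 0.0263), and was -0.08 without ethanol 1 and -0.16 without honokiol 2. The calls of YVC1 and GDT1 did not hold without honokiol 1 or without honokiol 2, where the calls over all genes also fell. YVC1 changed by -0.47 and -0.41 in those fits, and GDT1 by 0.52 and 0.56.

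In the list of calmodulin, kinases and other modifiers of calcineurin signalling, 2 of 6 genes, RCN2 and CMK1, were lower (33.3%, near the 25.0% of all genes) and 0 were higher (against 23.9%). MCK1, a kinase related to GSK-3 that phosphorylates Rcn1, had 11.54 and 11.51 with honokiol but 11.46 and 10.71 with ethanol. The ethanol arrays were far apart, the change of 0.45 did not pass (adjusted p = 0.195), and it was 0.07 without ethanol 2 but 0.82 without ethanol 1, where it passed (adjusted p = 0.000848). HRR25, a casein kinase that phosphorylates Crz1, changed by 0.14 (adjusted p = 0.259). Fewer genes of this list passed without honokiol 1 or without honokiol 2, as over all genes. In those fits RCN2 changed by -0.56 and -0.53, and CMK1 by -0.25 and -0.21.

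Of 5 calcineurin substrates and their paralogs, 3 were lower (60.0%, against 25.0% of all genes) and 1 was higher (against 23.9% of all genes). SLM1, a membrane lipid-binding protein that works with TORC2, had 9.17 and 9.26 with honokiol and 9.59 and 9.68 with ethanol and fell by 0.42 ± 0.07 (adjusted p = 0.00952). Its paralog SLM2 had 8.54 and 8.53 with honokiol and 8.29 with ethanol on both arrays, and rose by 0.25 ± 0.06 (adjusted p = 0.0225), so the paralogs moved in opposite directions. FRT1 and FRT2, tail-anchored proteins of the endoplasmic reticulum, fell by 0.26 and 0.24 (adjusted p = 0.0286 and 0.0433). None of these 4 calls held without honokiol 1 or without honokiol 2, where the calls over all genes also fell. With the 5′ to 3′ ratio as a covariate 1 held, that of SLM1. The changes of FRT1, FRT2 and SLM2 were -0.27, -0.21 and 0.25 in that fit. On quantile normalization again FRT2 and SLM2 did not pass (adjusted p = 0.0606 and 0.0735), nor did FRT2 without ethanol 2 (adjusted p = 0.0844).

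Of 17 genes for sodium and potassium transport and for control of ENA1, 5 were higher (29.4%, near the 23.9% of all genes) and 2 were lower (11.8%, against 25.0%), with a median of 0.12. Besides the marked ENA5 probe set, the largest changes were rises. SAT4, a kinase that promotes potassium uptake, had 10.87 and 10.91 with honokiol and 10.32 and 10.30 with ethanol, a log2 change of 0.58 ± 0.06 (adjusted p = 0.00312). That change lay between 0.56 and 0.62 under the 13 other settings. HAL1, named for halotolerance, was 1.44-fold higher (adjusted p = 0.00609). PPZ1, a phosphatase that restrains potassium uptake and ENA1 expression, was 1.43-fold higher (adjusted p = 0.00382). Fewer genes of this list passed without honokiol 1 or without honokiol 2, as over all genes. In those fits SAT4 changed by 0.61 and 0.56, HAL1 by 0.46 and 0.60, and PPZ1 by 0.53 and 0.49.

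**Figure D4:**
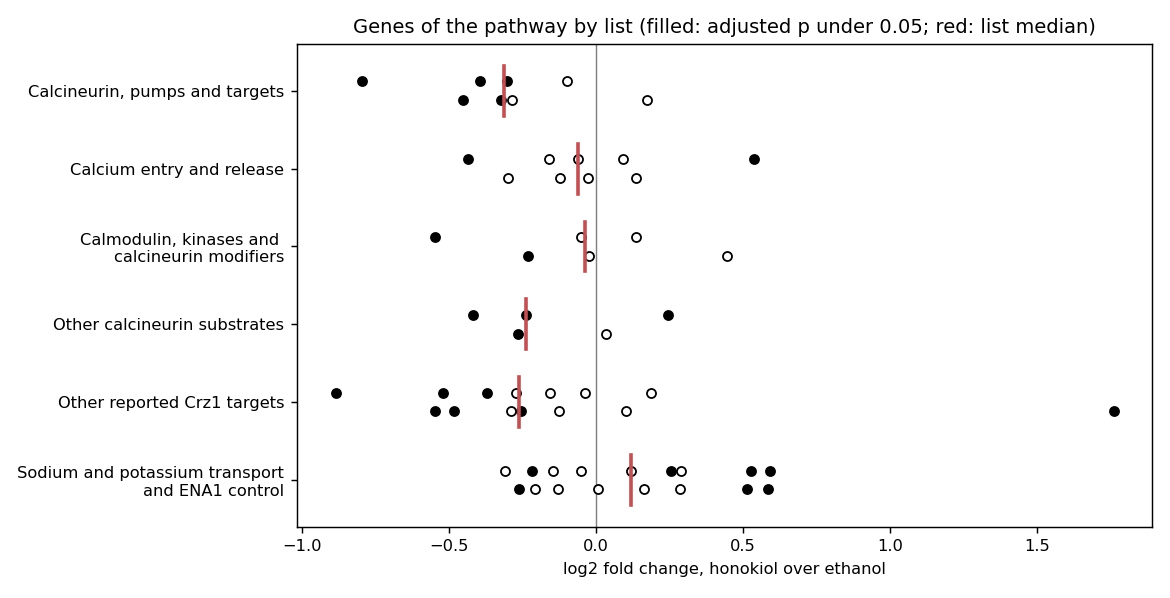
Log2 fold change of honokiol over ethanol (x axis) for the 8 measured genes and for 5 lists of related genes, 1 point per gene, filled where the adjusted p was under 0.05, with a red bar at each list's median. The medians run from -0.31 for the 8 genes to 0.12 for the sodium and potassium list, and PHO89 at 1.76 stands at the far right among the Crz1 targets.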

How the data were processed

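The authors deposited 1 intensity value per probe set and array on a linear scale. Per the submitters' processing notes these came from RMA, whose version the sources do not give. Intensities ran from 2.58 to 22549, so log2 was taken with no pseudocount. The platform annotation, matched by gene ID to the R64 gene table, tied 5498 of 10928 probe sets to a single S. cerevisiae gene. Each of 5449 genes was tested through its brightest probe set (113 of them marked s or x). The background level is the 95th percentile of the means of 1747 probe sets whose annotation lists several genes or no gene of that table.

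Groups were compared with limma 3.58.1 (lmFit, eBayes; R 4.3.3). Tests were two-sided, and p-values were adjusted by Benjamini and Hochberg over all 5449 genes. Adjusted p-values and intervals are from this fit unless another is named. The fit was also run on simulated data, but no outcome of that run is given here. Simulated data need not share the features of these arrays, so no conclusion on the calls is drawn from that run. With so few arrays the precision is limited, and RMA compresses changes of dim probe sets. Genes named were all 9 members, up to 4 per list by size of change, and paralogs. Members and lists were chosen with earlier results of these data known, and the lists (53 related genes, 50 of them tested) come from general knowledge of the pathway. Length is that in the gene table, mostly coding length. No coordinates or sequences are given. The alternatives covered the variance model, scaling, probe set choice, replicate block, RNA 5′ to 3′ ratio and each array left out.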

Additional observations from a re-analysis of the deposited data

How the results depend on the processing

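Of the 8 genes, 5 passed as reported, and 3 passed with all probe sets but controls as features (RCN1, PMC1 and CMK2) or with the 5′ to 3′ ratio as a covariate (RCN1, PMC1 and CNA1). With all probe sets as features, 12 of the 50 other pathway genes passed, against 21, and 1612 of all 5449 genes, against 2663. With the 5′ to 3′ ratio as a covariate, 17 of the 50 passed and 1867 of all genes. Leaving out 1 array at a time gave 1 to 6 of the 8 genes, 4 to 28 of the 50 and 705 to 3190 of all genes. Without each honokiol array the spread comes from the ethanol pair alone, and the lone array is assumed to vary like it. The replicate numbers are shared between groups, and deviations of same-numbered arrays correlated at 0.33 over genes, but no label says that a number marks a shared batch; with the replicate block 5 of 8, 24 of 50 and 2809 of all genes passed; among the named genes FIG1 gained its call (adjusted p = 0.0291) and FRT2 lost it (adjusted p = 0.0559). CMP2 passed with an intensity trend and robust prior, with arrays centred on their medians and without ethanol 1 (adjusted p = 0.019, 0.0486 and 0.00749) but not under the other 10 settings, and CNB1 with the trend and on quantile normalization again (adjusted p = 0.046 and 0.042). Over 13 alternatives each, the 8 genes gave 104 values, of which 87 kept their side of the threshold, 12 lost the call, 5 gained it and 0 changed direction. Of the other named genes, MCK1 changed direction, to -0.14 with the 5′ to 3′ ratio as a covariate; the cause was not tested.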
